A study of Mus musculus with 2 samples.

Results

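The genes described here are the ligand-receptor pairs that guide migrating muscle precursors: Hgf with its receptor Met, and Cxcl12 with its receptors Cxcr4 and Ackr3. They were chosen by symbol, and all 5 were found among the 32285 genes counted. Their levels were read in the cell types of a single-cell series from mouse embryos at embryonic day 14, in which cells carrying the tdT reporter had been sorted from trunks and limbs after removal of the head and viscera. By title, 1 library came from SRSF2f/f/Myf5-Cre/tdT embryos, with both Srsf2 alleles floxed, and 1 from SRSF2f/w/Myf5-Cre/tdT embryos, with a floxed and a wild-type allele. Both groups therefore carried Myf5-Cre, at least 1 floxed allele and the reporter, and the same Cre drove the deletion and the tdT label, so that only cells with a history of Cre activity, and cells that passed the gate for another reason, were seen. The number of embryos in a library is not given in the sources used here.

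The labels of the libraries went against each other, and the libraries are called library 1 and library 2, after the barcode suffix, throughout. Library 1 held 12498 barcodes, the number of cells in the summary of the sample titled SRSF2f/w/Myf5-Cre/tdT, but the name of that summary marks it as KO. Library 2 held 15268 barcodes, the number in the summary of the sample titled SRSF2f/f/Myf5-Cre/tdT, whose name marks it as WT. Srsf2, the floxed gene, was at 153 CPM (UMIs per 1000000 UMIs of the same cells, with a 95% interval of 151 to 155) in library 1 and at 219 CPM (217 to 221) in library 2, against the direction of the titles. This level is not a measure of the deletion, because the 3′ reads may lie outside the deleted part and Srsf2 (GRCm38 chromosome 11, 116849901 to 116853094, minus strand) overlaps the counted genes Mettl23 and Mfsd11 on the other strand. Differences between the libraries are given here as differences between these libraries, and no genotype is read from them.

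The counts before filtering summed to 128116615 UMIs in library 1 and 156093779 in library 2, and 10345 and 12523 cells were kept, with medians of 9480 and 10751 UMIs per cell. The libraries shared 74 barcode sequences, 50 of them among kept cells. With 1 library per genotype, and with cells that are not replicates, no test between conditions was possible. UMI sums have exact Poisson intervals, shares exact Clopper-Pearson intervals, and ratios of levels exact intervals from the binomial split of the UMIs, all at 95% and all covering counting error only. An interval that leaves out 0 is thus a statement on counting and not on the spread between embryos.

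Hepatocyte growth factor, encoded by Hgf, is secreted by mesenchyme as an inactive precursor and acts on the receptor tyrosine kinase Met. In the embryo this signal releases muscle precursors from the edge of the dermomyotome and draws them into the limb buds, the diaphragm and the tongue. Cxcl12 is a chemokine of mesenchyme and vessel walls that attracts cells carrying the G-protein-coupled receptor Cxcr4, among them limb muscle precursors, blood cell progenitors and sprouting endothelial cells. Ackr3 binds the same chemokine, does not signal through G proteins, and takes it up for degradation.

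Each kept cell was given a class from UMI limits on fixed markers, with 15 classes in all. Of 77 markers of the 13 classes with at least 50 cells, 76 had their highest level in their own class, the exception being 1 of the 6 mesenchymal markers, but these are the markers that set the classes, and the count is no independent check of them. The myogenic class held 115 cells in library 1 and 2363 in library 2, 1.11% and 18.9% of kept cells, and this difference limits every myogenic value of library 1. The mesenchymal class held 2043 and 3281 cells, the chondrocytes 2028 and 1998, and the endothelial cells 923 and 359. A further 2773 cells of library 1 and 2700 of library 2 reached no limit and stayed unassigned, and 521 and 483 cells that reached the limits of several classes were left out as mixed.

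The UMIs of the ligands lay mostly outside the muscle lineage, and those of Met and Cxcr4 were spread over several lineages. Of all Hgf UMIs, 44.7% (41.3% to 48.1%, of 848) were in mesenchymal cells and 3.77% in myogenic cells, and of all Cxcl12 UMIs, 50.6% (49.7% to 51.5%, of 12191) and 2.25%. Mesenchymal cells held 21.1% of all kept UMIs and myogenic cells 14%. With both libraries summed, Met and Cxcr4 had larger myogenic shares, with 21.9% (20.3% to 23.7%, of 2330) and 29.2% (26.0% to 32.5%, of 795) of their UMIs in myogenic cells and 17.1% and 14.8% in mesenchymal cells. Myogenic cells were 1.11% of kept cells in library 1 and 18.9% in library 2, and these sums describe neither library. The myogenic share of Met UMIs was 2.54% in library 1 and 36.1% in library 2, and that of Cxcr4 UMIs 4.15% and 45.4%. Ackr3, like the ligands, had its largest share in mesenchymal cells, at 33.4% (32.0% to 34.7%, of 4787), with 6.10% in myogenic cells. Chondrocytes, with 19.6% of all kept UMIs, held 23.1% of the Ackr3 UMIs but 6.49% of the Hgf and 6.37% of the Cxcl12 UMIs. Unassigned cells, with 12.4% of the UMIs, held 23.2% of the Hgf and 22.6% of the Cxcl12 UMIs.

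**Figure D1:**
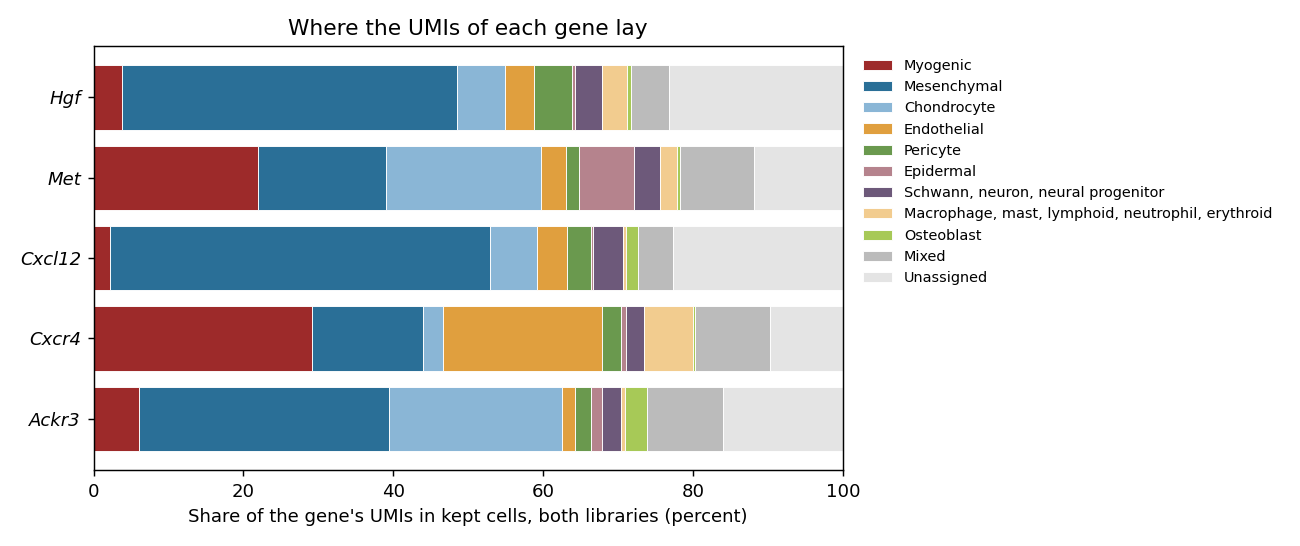
Share of each gene's UMIs by cell class, both libraries summed, as stacked bars in percent with 1 bar per gene. Mesenchymal cells take 44.7% of the Hgf and 50.6% of the Cxcl12 bar, while myogenic cells take 21.9% of the Met and 29.2% of the Cxcr4 bar. Most myogenic UMIs came from library 2, with 486 of Met and 219 of Cxcr4, beside 25 and 13 in library 1.

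Hgf (chromosome 5, 16553495 to 16620152, plus strand, GRCm38) was a gene of pericytes and connective tissue. Its level was 12.0 CPM (7.11 to 19.0) in pericytes of library 1 and 8.95 CPM (5.79 to 13.2) in those of library 2, and 7.11 CPM (6.05 to 8.30, 160 UMIs) and 6.18 CPM (5.39 to 7.05, 219 UMIs) in mesenchymal cells. A single pericyte of library 1 gave 6 of its 18 UMIs, and without it the level was 8.16 CPM. In neither library were pericytes apart from mesenchymal cells, with log2 ratios of 0.76 (-0.04 to 1.46) and 0.54 (-0.12 to 1.14), while the sum of both libraries gave 0.62 (0.13 to 1.07). Schwann cells, the glia of peripheral nerves, had 3.72 and 4.34 CPM.

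Chondrocytes, a skeletal derivative of the mesenchyme, had little Hgf. They stood at 0.98 CPM in library 1 and 1.06 CPM in library 2, a log2 ratio of mesenchymal cells over chondrocytes of 2.86 (2.26 to 3.52) and 2.54 (1.98 to 3.15). Muscle progenitors were as low, with 15 UMIs or 0.84 CPM in library 2 and 0 UMIs in library 1, where 3 UMIs would have been 4.63 CPM. In library 2 the mesenchymal level was above the progenitor level by 2.87 (2.12 to 3.74) on the log2 scale.

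Hgf was sparse also where it was highest. A UMI was seen in 5.78% and 5.43% of mesenchymal cells, with median depths of 9924 and 9826 UMIs, against 1.64% and 0% of epidermal cells (0 of 92 cells in library 2), with median depths of 19790.5 and 13496 UMIs. After every cell had been thinned to 2000 UMIs the shares were 1.08% and 1.25% of mesenchymal cells and 0.83% and 0% of epidermal cells, too close in library 1 to give an order. In erythroid cells there were no Hgf UMIs, but 3 UMIs would have been 8.31 and 6.70 CPM there, above the mesenchymal level in library 1 as in library 2. Hgf overlaps the gene models Gm43489 and Gm42975 on the same strand, and neither was among the counted genes.

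Cxcl12 (chromosome 6, 117168535 to 117181367, plus strand) was high in mesenchymal cells and in arterial endothelium. Mesenchymal cells had 122 CPM (118 to 127, 2754 UMIs) in library 1 and 96.3 CPM (93.1 to 99.6, 3416 UMIs) in library 2. Arterial endothelial cells had 138 CPM (113 to 166, 108 UMIs in 21 of 45 cells) and 128 CPM (92.5 to 173, 42 UMIs in 9 of 28 cells). In library 2 a single arterial cell gave 18 of the UMIs, and without it the level was 74.9 CPM. Arterial and mesenchymal levels were not apart in either library, at log2 ratios of 0.17 (-0.12 to 0.45) and 0.41 (-0.06 to 0.85), and the sum of both libraries gave 0.34 (0.10 to 0.58).

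Other stromal and glial cells also had the chemokine. Pericytes were at 69.3 CPM in library 1 and 102 CPM in library 2, Schwann cells at 78.1 and 47.7 CPM, and osteoblasts at 35.9 and 27.3 CPM. Schwann cells lay below mesenchymal cells in both libraries, by log2 ratios of -0.65 and -1.01. Neurons had 25.3 and 12.0 CPM, and in library 1 the 3 of 892 neurons with at least 10 Cxcl12 UMIs held 17.9% of that class's UMIs.

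Myogenic cells had little Cxcl12. Their level was 9.56 CPM in library 1 and 6.99 CPM in library 2, beside 8.29 and 4.81 CPM in epidermal cells and 8.31 and 4.46 CPM in erythroid cells, classes that should lack the gene and serve as a reading of free RNA. Other blood cells were lower, with 3.77 CPM (2.19 to 6.03) and 1.65 CPM in mast cells and 2.81 and 2.19 CPM in lymphoid cells, the values of library 2 on 1 UMI each, so that the background was not the same in each class. The mesenchymal level was above that of epidermal cells by 3.88 (3.28 to 4.56) and 4.32 (3.28 to 5.64) on the log2 scale, and above that of muscle progenitors by 3.72 and 3.91. A UMI was seen in 45.7% and 44.5% of mesenchymal cells and in 9.02% and 4.35% of the deeper epidermal cells, and after thinning in 18.3% and 15.6% against 3.31% and 1.09%. Cells with at least 10 UMIs were 1.81% and 0.82% of the mesenchymal class and held 19.1% and 9.34% of its Cxcl12 UMIs.

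**Figure D2:**
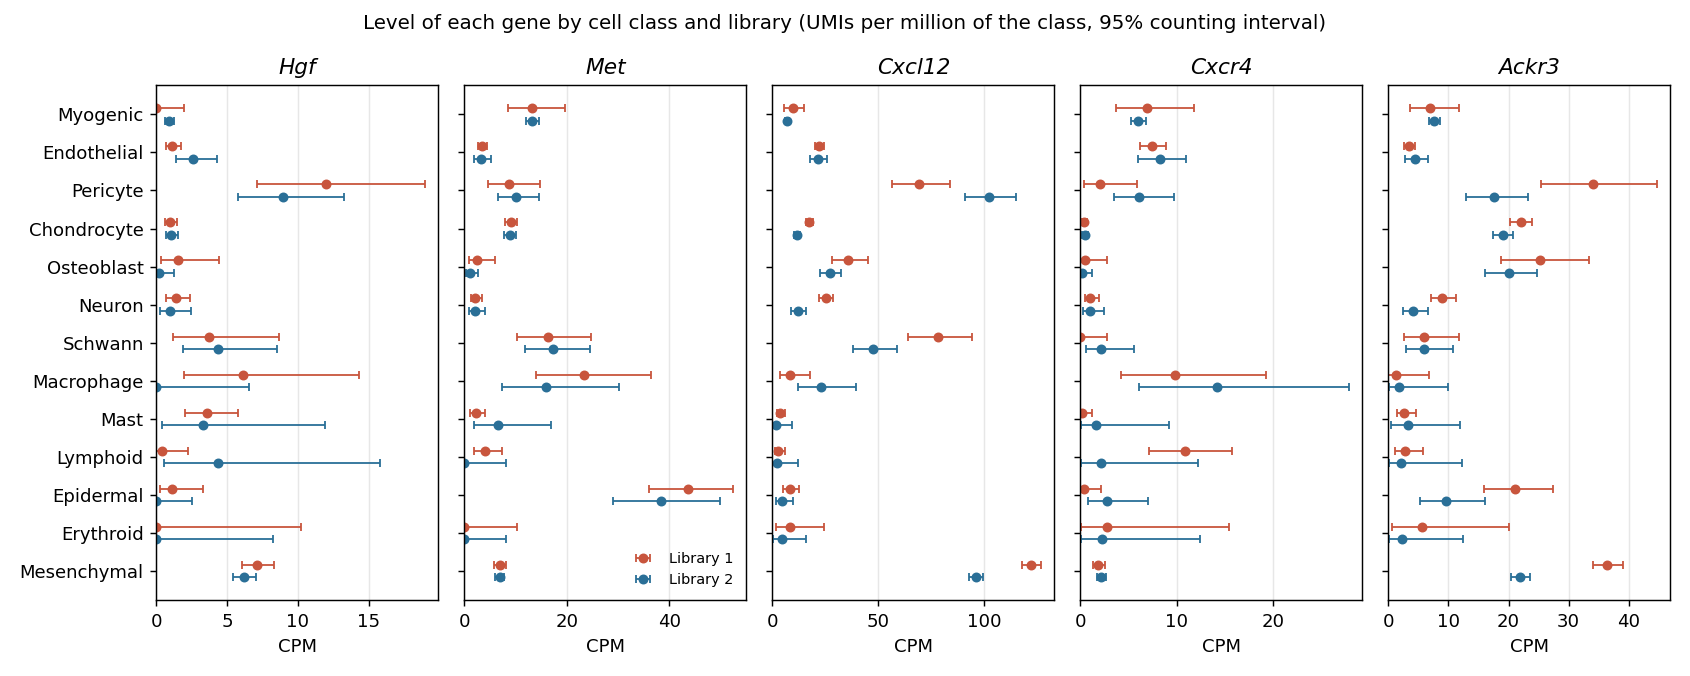
Level of each gene in CPM, with 95% Poisson intervals, in the 13 cell classes with at least 50 cells, library 1 in red and library 2 in blue. The Hgf and Cxcl12 panels reach their highest points in pericytes and mesenchymal cells, the Met panel in epidermal cells (43.7 and 38.5 CPM), and the Ackr3 panel in mesenchymal cells of library 1 (36.4 CPM).

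Ordered by mean level, few classes stood clear of the next. The 13 ranked classes gave 60 neighbouring pairs over the 5 genes, and in 2 of these pairs the interval lay above that of the next class in library 1 and again in library 2. Both pairs were of Cxcl12, Schwann cells over osteoblasts and chondrocytes over myogenic cells.

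Met (chromosome 6, 17463800 to 17573980, plus strand) was highest in epithelium and was present through the muscle lineage. Epidermal cells had 43.7 CPM (36.1 to 52.4) in library 1 and 38.5 CPM (29.1 to 50) in library 2. They made up 1.5% of the kept UMIs and held 7.38% of the Met UMIs. Muscle progenitors, defined by at least 1 Pax7 UMI and at most 2 Myog UMIs, had 27.8 CPM (16.5 to 43.9, 18 UMIs in 13 of 39 cells) and 16.4 CPM (14.5 to 18.3, 291 UMIs in 242 of 1106 cells). In library 2 epidermal cells were above progenitors by 1.23 (0.80 to 1.65) on the log2 scale, and in library 1 by 0.65 (-0.07 to 1.46).

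Met UMIs were not limited to epithelium and muscle. Macrophages had 23.3 CPM (14 to 36.4) and 15.9 CPM (7.28 to 30.2), on 19 and 9 UMIs. Macrophages and erythroid cells were the classes picked to read free RNA for Met. The macrophage level was near that of muscle progenitors (27.8 and 16.4 CPM). Neurons had 2.16 CPM in each library, on 19 and 9 UMIs, and osteoblasts 2.53 and 1.13 CPM, on 5 UMIs each. Erythroid cells had 0 Met UMIs, where 3 UMIs would have been 8.31 and 6.70 CPM. The part of free RNA in the Met levels was not tested. Schwann cells had 16.4 and 17.4 CPM, with a log2 ratio over progenitors of -0.76 (-1.73 to 0.22) in library 1 and 0.09 (-0.49 to 0.62) in library 2. Chondrocytes had 9.08 and 8.83 CPM, and progenitors were above them by 1.61 and 0.89 (0.64 to 1.14) on the log2 scale. Because chondrocytes are many, they held 20.7% of all Met UMIs, close to their 19.6% of all UMIs. Mesenchymal cells had 6.89 and 6.88 CPM and blood endothelial cells 2.79 and 3.01 CPM.

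Cxcr4 (chromosome 1, 128588199 to 128592293, minus strand) was a gene of blood vessels, muscle progenitors and some immune cells. Blood endothelial cells had 15.4 CPM (12.3 to 18.9, 88 UMIs) in library 1 and 15.4 CPM (11.1 to 20.9, 41 UMIs) in library 2. With both libraries summed, endothelial cells held 8.07% of all UMIs and 21.3% (18.5% to 24.3%) of the Cxcr4 UMIs. Their share of the Cxcr4 UMIs was 39.6% in library 1 and 9.34% in library 2. Macrophages had 9.80 and 14.2 CPM and lymphoid cells 10.8 and 2.19 CPM, the last on 1 UMI.

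Muscle progenitors also had Cxcr4, in library 2 at a level below that of blood endothelial cells. They had 10.8 CPM (4.35 to 22.3, 7 UMIs) and 8.20 CPM (6.93 to 9.65, 146 UMIs), and blood endothelial cells were above them by 0.51 (-0.60 to 1.86) and 0.91 (0.37 to 1.42) on the log2 scale. Chondrocytes, read as background, had 0.34 and 0.44 CPM, which is below the progenitors of library 2 by 4.22 (3.37 to 5.21). A UMI was seen in 17.9% and 11.7% of progenitors, at median depths of 15259 and 15233.5 UMIs, and in 0.39% and 0.60% of chondrocytes, at 11625.5 and 12609.5 UMIs. After thinning the shares in library 2 were 2.17% and 0.051%, while in library 1 they were 0% (0 of 39 progenitors) and 0.15%, too few cells for an order. Mesenchymal cells had 1.87 and 2.14 CPM and epidermal cells 0.38 and 2.75 CPM, the last on 4 UMIs and below the progenitors of library 2 by 1.58 (0.19 to 3.47).

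Ackr3 (chromosome 1, 90203980 to 90216751, plus strand) lay in connective tissue and skeleton. Mesenchymal cells had 36.4 CPM (34.0 to 39.0, 820 UMIs) in library 1 and 21.9 CPM (20.4 to 23.5, 777 UMIs) in library 2. Pericytes had 34.0 and 17.5 CPM, osteoblasts 25.3 and 20.1 CPM, and chondrocytes 22.1 and 19.1 CPM. Epidermal cells had 21.1 and 9.62 CPM. Macrophages had 1.23 and 1.77 CPM, on 1 UMI each, and erythroid cells 5.54 and 2.23 CPM, on 2 and 1 UMIs. These were the classes picked to read free RNA for Ackr3. Muscle progenitors, with 6.18 and 6.46 CPM, were below mesenchymal cells, osteoblasts and chondrocytes. Schwann cells had 5.95 and 5.97 CPM, neurons 8.97 and 4.09 CPM and endothelial cells 3.47 and 4.39 CPM. The progenitor level in library 2 lay inside the erythroid interval (0.06 to 12.4 CPM), which is wide because it rests on 1 UMI. Lymphatic endothelial cells had 2.28 CPM (1.47 to 3.36, 25 UMIs) and 2.14 CPM (0.79 to 4.66, 6 UMIs). The part of free RNA in the Ackr3 levels was not tested.

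The 3 receptors were then followed through muscle differentiation in library 2. Differentiating cells, with no Pax7 UMI and at least 3 Myog UMIs, numbered 800, beside 1106 progenitors. Met was at 16.4 CPM in progenitors and 7.08 CPM (5.63 to 8.81, 81 UMIs) in differentiating cells, a log2 ratio of -1.21 (-1.58 to -0.85). Cxcr4 was at 8.20 and 2.45 CPM (1.63 to 3.54, 28 UMIs), a log2 ratio of -1.74 (-2.38 to -1.15). Ackr3 was higher in differentiating cells, at 9.62 CPM (7.91 to 11.6, 110 UMIs) against 6.46 CPM (115 UMIs), a log2 ratio of 0.57 (0.18 to 0.96). The Ackr3 levels of both stages lay inside the erythroid interval of library 2 (0.06 to 12.4 CPM, on 1 UMI). That interval is too wide to place them against free RNA.

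Across the genes with at least 50 UMIs in both stages together (11153 genes), 6.92% were at least 2-fold higher in differentiating cells and 12.4% at least 2-fold lower. Of the 4 genes described here that had enough UMIs, 0 were 2-fold higher and 2, Met and Cxcr4, were 2-fold lower. Their median log2 ratio was -0.59, beside -0.18 over all genes tested. Hgf was the gene with too few UMIs.

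The 49 differentiating cells of library 1 gave few counts. Met had 4 UMIs there against 18 in the 39 progenitors, a log2 ratio of -2.45 (-4.47 to -0.85), the same direction as in library 2. Cxcr4 had 3 UMIs against 7, and Ackr3 had 4 against 4, with a log2 ratio of -0.28. With both libraries summed the log2 ratios were -1.27 (-1.63 to -0.92) for Met, -1.71 (-2.32 to -1.15) for Cxcr4 and 0.53 (0.15 to 0.91) for Ackr3.

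Myog, the transcription factor that marks the step into fusion-competent myocytes, gave a finer order within library 2. In cells with 0, 1 to 2, 3 to 9 and at least 10 Myog UMIs, Met was at 15.7, 18.7, 13.5 and 7.31 CPM (5.83 to 9.05 in the last bin). Cxcr4 was at 7.96, 8.18, 5.17 and 2.61 CPM (1.76 to 3.73), and Ackr3 at 6.58, 6.36, 8.98 and 9.05 CPM (7.40 to 11). Met and Cxcr4 were thus at their lowest in the bin with the most Myog, and their levels with 0 and with 1 to 2 Myog UMIs lay close together. Cxcl12, in the same bins, was at 6.44, 8.90, 9.88 and 5.66 CPM, with no single direction.

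**Figure D3:**
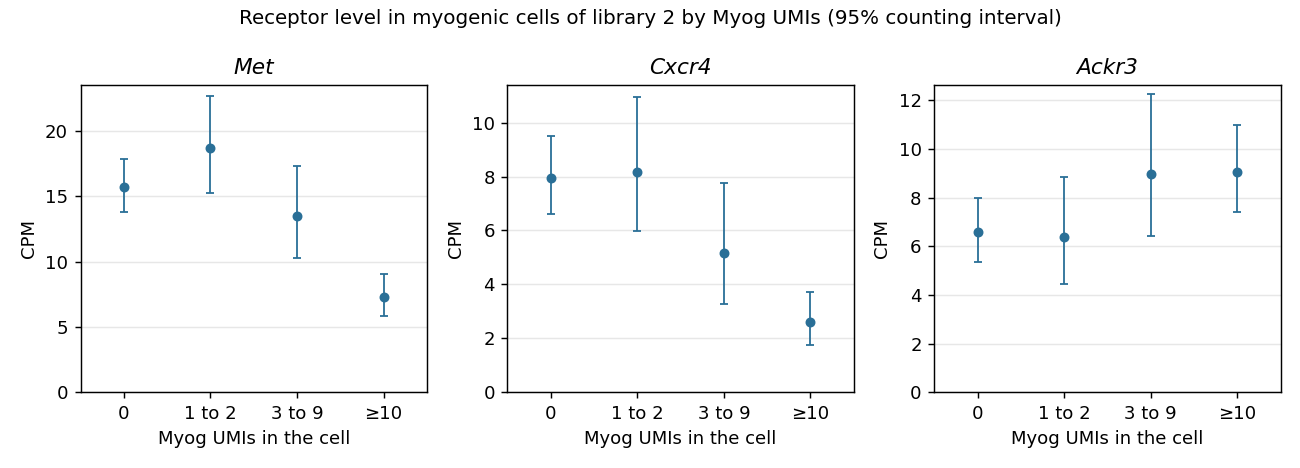
Levels of Met, Cxcr4 and Ackr3 in CPM, with 95% Poisson intervals, in myogenic cells of library 2 binned by Myog UMIs (982, 339, 281 and 761 cells). Met and Cxcr4 are lowest in the bin with at least 10 Myog UMIs, at 7.31 and 2.61 CPM, where Ackr3 stands at 9.05 CPM.

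Lbx1 and Pax3, transcription factors of migrating limb muscle precursors, were used to divide the progenitors of library 2. Progenitors with an Lbx1 UMI numbered 195 and the others 911. Met was at 14.7 CPM with Lbx1 and 16.8 CPM without, a log2 ratio of -0.19 (-0.65 to 0.25), and Cxcr4 was at 10.5 and 7.64 CPM, a log2 ratio of 0.45 (-0.13 to 1). Neither receptor was therefore apart by Lbx1 at this depth. The corresponding log2 ratios for Pax3, seen in 108 progenitors, were -0.10 (-0.69 to 0.45) and 0.10.

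Between these progenitors, Ackr3 was apart by Lbx1 but not by Pax3. It was at 2.55 CPM (9 UMIs) in progenitors with Lbx1 and 7.43 CPM (106 UMIs) in those without, a log2 ratio of -1.55 (-2.71 to -0.57). With and without Pax3 it was at 8.22 CPM (16 UMIs) and 6.25 CPM (99 UMIs), a log2 ratio of 0.40 (-0.47 to 1.17), the other direction. The levels by Lbx1 and by Pax3 lay inside the erythroid interval of library 2 (0.06 to 12.4 CPM, on 1 UMI). Ackr3 was also lower in cycling than in other progenitors, by a log2 ratio of -0.92 (-1.58 to -0.20). Cells with an Lbx1 UMI were deeper, with medians of 17002 and 15028 UMIs, and the part of depth in the difference by Lbx1 was not tested.

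The receptors were seen together in a few cells only. Of the 1106 progenitors of library 2, 36 had UMIs of both Met and Cxcr4, where the product of the shares within 3 depth bins gives 29.1. Met and Ackr3 shared 24 cells against 21.2, and Cxcr4 and Ackr3 shared 15 against 11.7. In mesenchymal cells Hgf and Cxcl12 shared 59 cells in library 1 against 56.8, and 95 in library 2 against 81.7, while Cxcl12 and Ackr3 shared 214 against 239 and 233 against 260. These counts are descriptions of sparse data.

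Within the endothelium, the chemokine and its receptors were on the blood vessel side. Blood endothelial cells numbered 338 and 170 and lymphatic cells 585 and 189. Cxcl12 was at 41.4 CPM in blood and 12.2 CPM in lymphatic cells of library 1, a log2 ratio of 1.76 (1.45 to 2.08), and at 36.4 and 7.49 CPM in library 2, a log2 ratio of 2.28 (1.59 to 3.04). Cxcr4 was at 15.4 and 3.28 CPM in library 1, a log2 ratio of 2.23 (1.65 to 2.83), and at 15.4 and 1.43 CPM in library 2, a log2 ratio of 3.43 (1.97 to 5.37). Ackr3 was at 5.76 and 2.28 CPM in library 1 and 6.76 and 2.14 CPM in library 2, with log2 ratios of 1.34 (0.54 to 2.15) and 1.66 (0.26 to 3.28). These Ackr3 levels lay inside the erythroid intervals of their libraries (0.67 to 20.0 and 0.06 to 12.4 CPM, on 2 and 1 UMIs).

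Of 10278 genes with enough UMIs in the endothelium of library 1, 4.47% were at least 2-fold higher in blood than in lymphatic cells and 6.31% at least 2-fold lower. Of the 4 genes described here that could be compared, 3 were 2-fold higher, Cxcl12, Cxcr4 and Ackr3, and 0 were 2-fold lower. The median log2 ratio was 1.55 over these 4 genes and -0.06 over all genes tested.

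Among blood endothelial cells the arterial and venous subclasses differed. Cxcl12 was at 138 CPM in arterial and 12.3 CPM in venous cells of library 1, and at 128 and 7.80 CPM in library 2, with log2 ratios of 3.48 (2.87 to 4.13) and 4.04 (3.02 to 5.2). Cxcr4 was at 24.2 CPM (14.6 to 37.8, 19 UMIs in 14 cells) in arterial and 4.85 CPM in venous cells of library 1, a log2 ratio of 2.32 (1.18 to 3.54). In library 2 it was at 67.2 CPM (42.1 to 102, 22 UMIs in 8 cells) and 3.12 CPM, a log2 ratio of 4.43 (2.87 to 6.43), and the arterial level was 51.3 CPM without the cell with the most UMIs. The other blood endothelial cells, which reached the limits of neither or of both subclasses, had 21.7 and 14.2 CPM of Cxcr4. Arterial cells were 45 and 28 in number, so these values rest on few cells.

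**Figure D4:**
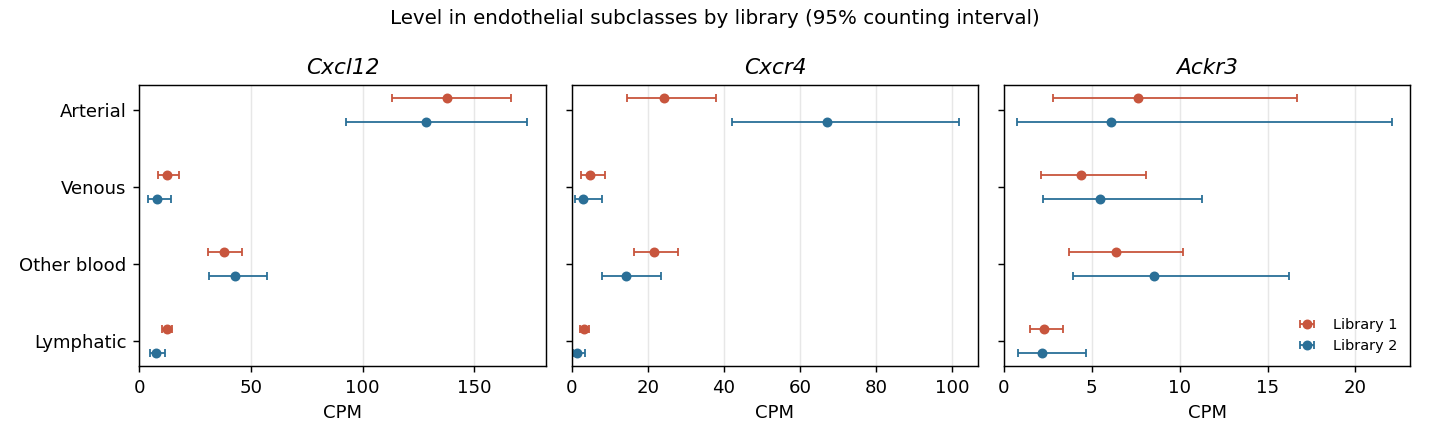
Levels of Cxcl12, Cxcr4 and Ackr3 in CPM, with 95% Poisson intervals, in arterial, venous, other blood and lymphatic endothelial cells of library 1 (red) and library 2 (blue). In the Cxcl12 panel the arterial points stand at 138 and 128 CPM and the venous points at 12.3 and 7.80 CPM.

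Within the mesenchyme Cxcl12, Met and Ackr3 differed between subclasses in each library. Subclasses were set by markers of tendon, dermis, fascia and muscle connective tissue, the Osr1-positive stroma around muscles. Of the 2043 and 3281 mesenchymal cells, 541 and 554 reached no subclass, and 570 and 1188 reached several. Hgf was at 9.84 CPM in muscle connective tissue, 6.78 CPM in dermal cells and 6.77 CPM in tendon cells of library 1. In library 2 it was at 7.41, 4.64 and 3.33 CPM. Muscle connective tissue was not apart from dermal cells in either library, at log2 ratios of 0.54 (-0.32 to 1.34) and 0.67 (-0.08 to 1.41). The sum of both libraries gave 0.58 (0.03 to 1.11). Nor was it apart from tendon cells, with 5 and 4 UMIs, at 0.54 (-0.93 to 2.32) and 1.15 (-0.38 to 3.13). In fascia cells Hgf had 0 UMIs in the 44 cells of library 1, where 3 UMIs would have been 7.30 CPM, and 13 UMIs or 10.3 CPM in library 2.

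Cxcl12 was low in tendon. Tendon cells had 62.3 and 48.3 CPM, dermal cells 131 and 99.4 CPM and muscle connective tissue 142 and 109 CPM, with log2 ratios of tendon over dermal cells of -1.07 (-1.53 to -0.64) and -1.04 (-1.45 to -0.66). Fascia cells had 141 CPM in library 1 and 77.8 CPM in library 2. Met had its highest mesenchymal level in fascia cells, with 14.6 CPM on 6 UMIs and 14.3 CPM on 18 UMIs, against 2.65 and 2.43 CPM in dermal cells, log2 ratios of 2.46 (0.84 to 3.86) and 2.56 (1.58 to 3.51). Ackr3 was lower in muscle connective tissue than in dermal cells, with log2 ratios of -0.52 (-1.01 to -0.05) and -0.55 (-1.01 to -0.10). Cycling mesenchymal cells had less Ackr3 than the others, with log2 ratios of -0.43 (-0.66 to -0.21) and -0.52 (-0.74 to -0.30). For Met the same ratios were -0.28 (-0.81 to 0.23) and -0.78 (-1.20 to -0.38).

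**Figure D5:**
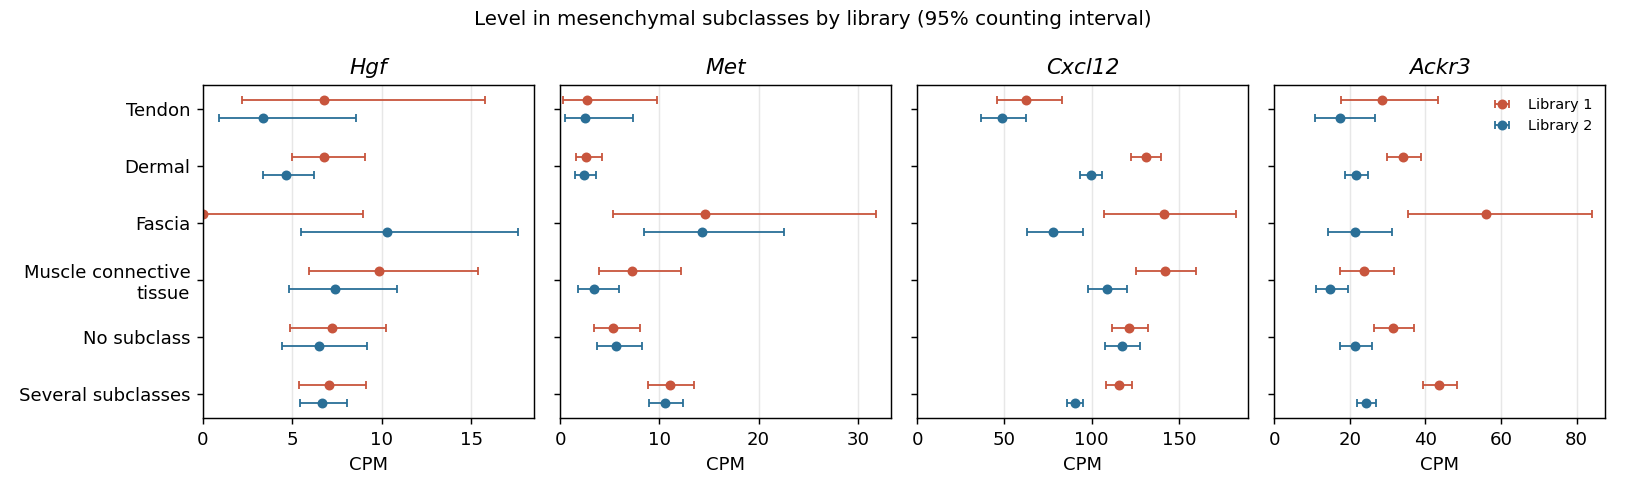
Levels of Hgf, Met, Cxcl12 and Ackr3 in CPM, with 95% Poisson intervals, in the mesenchymal subclasses of library 1 (red) and library 2 (blue). Tendon cells have the lowest Cxcl12 level in each library (62.3 and 48.3 CPM), and fascia cells have more Met (14.6 and 14.3 CPM) than dermal cells.

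The mesenchymal cells of the libraries were then compared. Only cells sorted for the tdT reporter at embryonic day 14 were read, so mesenchymal cells outside that gate were not seen. Whether the source of the cues differed as a whole was not tested. The log2 ratio of library 1 over library 2 was 0.20 (-0.10 to 0.50) for Hgf, 0.00 (-0.30 to 0.30) for Met, 0.34 (0.27 to 0.42) for Cxcl12 and 0.73 (0.59 to 0.88) for Ackr3. Library 1 is titled SRSF2f/w/Myf5-Cre/tdT but marked KO in the name of its summary, so these ratios have no genotype direction. Of 13439 genes with enough UMIs in these cells, 1.3% were at least 2-fold higher in library 1 and 0.997% at least 2-fold lower. Of the 5 genes described here 0 were 2-fold higher and 0 were 2-fold lower. At 1.5-fold, a limit added after the values were seen, 4.61% of all genes were higher in library 1, and Ackr3 was the 1 gene of the 5 past it. The median log2 ratio was 0.20 over the 5 genes and -0.05 over all genes tested.

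The difference in Ackr3 was spread over the mesenchyme. It was higher in library 1 in 6 of 6 subclasses, the cells of no and of several subclasses included, with log2 ratios from 0.56 to 1.39 and intervals above 0 in 5. Cxcl12 was higher in library 1 in 6 of 6 subclasses, with intervals above 0 in 4.

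The same direction was seen outside the mesenchyme. Neurons had log2 ratios of 1.07 (0.63 to 1.55) for Cxcl12 and 1.13 (0.36 to 1.98) for Ackr3, chondrocytes 0.59 (0.38 to 0.80) and 0.21 (0.04 to 0.38), Schwann cells 0.71 (0.29 to 1.14) for Cxcl12, and epidermal cells 1.13 (0.27 to 2.09) for Ackr3. Pericytes went the other way for Cxcl12, at -0.56 (-0.90 to -0.23), but not for Ackr3, at 0.95 (0.36 to 1.55). Over the 13 ranked classes Cxcl12 was higher in library 1 in 11, with intervals above 0 in 4 and below 0 in 1, and Ackr3 in 8, with intervals above 0 in 5 and below 0 in 0. The part of free RNA or of library preparation in these ratios was not tested.

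The receptors of the progenitors differed less clearly between the libraries. Met in progenitors had a log2 ratio of library 1 over library 2 of 0.77 (-0.01 to 1.45), on 18 and 291 UMIs. Cxcr4 had a log2 ratio of 0.40 (-0.94 to 1.48) in progenitors, on 7 and 146 UMIs, and of 0.00 (-0.55 to 0.57) in blood endothelial cells. In arterial cells Cxcr4 was lower in library 1, at a log2 ratio of -1.47 (-2.44 to -0.52), on 19 and 22 UMIs. The 22 UMIs of library 2 lay in 8 cells, and 1 cell gave 6 of them. Venous and other blood endothelial cells pointed the other way, at 0.64 (-1.12 to 2.74) and 0.60 (-0.23 to 1.53).

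The other genes of these pathways were read from 4 lists, to be set against the shares of all genes tested. Between mesenchymal cells 1.3% of all genes were at least 2-fold higher in library 1 and 0.997% lower. In differentiating cells of library 2, 6.92% were higher and 12.4% lower. In blood over lymphatic endothelial cells of library 1, 4.47% were higher and 6.31% lower. The list of HGF activation and inhibition holds the proteases and inhibitors that convert the precursor. In mesenchymal cells, 0 of its 5 members with enough UMIs were 2-fold apart between the libraries in either direction, with a median log2 ratio of 0.37. Between differentiating and progenitor cells of library 2, 0 of 4 were higher, and Plat, the tissue plasminogen activator, was lower at -1.62. In the endothelium of library 1, Spint2, a membrane inhibitor of HGF-converting proteases, was higher in blood cells at 1.19, and Plau, the urokinase, was lower at -1.84, with 28.6 CPM against 103 CPM, as 2 of 5 members. Hgfac, the circulating HGF activator, had at most 4 UMIs in each class listed, while epidermal cells, the class with the most Met, had 59.9 and 41.2 CPM of Spint1, 109 and 111 CPM of Spint2 and 12.4 and 14.4 CPM of the protease St14.

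Of the Met partners and adaptors, 0 of 10 were 2-fold apart between the mesenchymal cells of the libraries. Between muscle stages 1 of 9 was lower in differentiating cells, Cd44, a hyaluronan receptor and Met co-receptor, at 27.7 CPM against 88.6 CPM, a log2 ratio of -1.68. Between blood and lymphatic cells 1 of 8 was higher, Nrp1, a co-receptor of VEGF and semaphorins, at 155 CPM against 30.6 CPM, a log2 ratio of 2.34.

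Of the genes of CXCL12 cleavage and receptor signalling, 1 of 10 was 2-fold higher in the mesenchymal cells of library 1, Cd74, the receptor of Mif, at 3.64 CPM against 0.99 CPM. Between muscle stages 3 of 9 were lower in differentiating cells, beside 12.4% of all genes tested. Dpp4, the protease that cuts Cxcl12, was at -1.98 (-3.27 to -0.89, 8 against 49 UMIs). The arrestins were at -2.71 (-4.40 to -1.40, 5 against 51 UMIs) for Arrb1 and -1.18 (-1.65 to -0.73, 52 against 183 UMIs) for Arrb2. The median log2 ratio of the list was -0.59, beside -0.18 over all genes tested. In the endothelium 1 of 7, the chemokine Cxcl14, was lower in blood cells, at -1.56.

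The list of migratory muscle precursor genes had 0 of 5 members apart between the mesenchymal cells. In differentiating cells 1 of 6 was lower, Pax3 at -1.68, while Lbx1 was at -0.82 and Six4 at 0.68. In the endothelium Msx1 was higher in blood cells at 2.11, and Six4 at -1.21 and the ephrin Efna5 at -1.40 were lower, as 3 of 4 members. Beside them, 4.47% of all genes tested were higher and 6.31% lower.

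The genes most like each ligand or receptor over the 13 classes, by Pearson's r of log2(CPM + 10) among 14477 genes, are given as a description over points that share libraries and depth. Nearest to Hgf were Wnt2 (0.92), Osr1 (0.91), Agtr1a (0.89), Ednra (0.88) and Pdlim2 (0.88), and nearest to Cxcl12 were Dkk2 (0.96), Abca6 (0.96), Nynrin (0.95), Igsf10 (0.94) and Lhfpl2 (0.94). Met was most like Krt80 (0.91), Mir17hg (0.89), Rap2b (0.87), Ctf1 (0.86) and Jade3 (0.86), and Cxcr4 most like Trim25 (0.93), Gbp7 (0.87), Irgm1 (0.84), Mcm10 (0.84) and Gbp9 (0.83). Ackr3 was most like Echdc2 (0.95), Myl3 (0.94), Gli2 (0.92), C030014I23Rik (0.92) and Wnt5b (0.90). Osr1 and Dkk2 were also markers of mesenchymal subclasses, which were not among the 13 classes.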

How the data were processed

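Single cells of sorted tdT+ cells had been sequenced with 10x Genomics 3′ chemistry as 1 library per genotype. The authors mapped reads to mm10 and counted UMIs with Cell Ranger (5.0.0 in the matrix header, 3.1.0 in the submitters' processing notes, which also name STAR and Seurat 3.1.1), and aggregated the libraries after down-sampling reads. The deposited values are raw UMI counts for 27766 barcodes. The deposited summaries list 575393483 reads (saturation 45.9%) for library 1 and 571426356 (39.5%) for library 2. In the aggregated matrix the median barcode of library 1 had 8105.5 UMIs, against 9372 in its summary, and that of library 2 had 9219 in each.

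Cells within 2 SD of the mean log10 UMIs and log10 genes of their library and with at most 10% mitochondrial UMIs were kept. Classes came from UMI limits on marker lists, and no doublet caller was run. UMIs were summed per class and library and scaled to CPM. A gene entered a comparison with at least 50 UMIs and was counted past 2-fold. A count of 0 was read against a floor of 3 UMIs, and shares were also taken after thinning to 2000 UMIs.

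The text names the 5 genes, Srsf2, members of 4 pathway lists (some are not reported here) and, per gene, the 5 most correlated genes with at least 200 UMIs. The genes, classes and lists were chosen with earlier results of these data known. Alternatives changed the filters, class limits, treatment of mixed cells, depth and shared barcodes. Intervals were run on simulated Poisson counts, the model they assume. That run left out the clustering of UMIs in single cells and cannot show how the intervals hold under it. Coordinates are from GENCODE on GRCm38. Python 3.11.15, NumPy 2.4.6, SciPy 1.17.1, pandas 2.3.3 and matplotlib 3.10.9 were used.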

Additional observations from a re-analysis of the deposited data

Results flagged for a closer look

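In 4 ratios between cell groups the libraries pointed in opposite directions, each with at least 20 UMIs per cell group and library. The difference between the libraries was not tested in any of them, since each library is a single sample. Cxcl12 in pericytes over mesenchymal cells had a log2 ratio of -0.82 (-1.12 to -0.54) in library 1 and 0.09 (-0.09 to 0.26) in library 2. Cxcl12 in fascia over dermal cells was at 0.11 (-0.30 to 0.49) and -0.35 (-0.67 to -0.05). Ackr3 in fascia over dermal cells was at 0.72 (0.03 to 1.34) and -0.01 (-0.65 to 0.57). Hgf in cycling over other mesenchymal cells was at 0.11 (-0.38 to 0.60) and -0.38 (-0.80 to 0.03). In each pair at least 1 of the intervals holds 0, and the fascia values of library 1 rest on 44 cells.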

How the results depend on the processing

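Of 77 recomputed values of 10 results, 70 fell inside the counting interval of the value from the main settings. That interval is wide where UMIs are few, so the count is no measure of how close the values stayed. The signs that changed were of ratios whose intervals held 0 throughout. The mesenchymal share of Cxcl12 UMIs, 50.6%, was 52.3% with a mitochondrial limit of 5%, 45.3% with doubled class limits, 49.5% after thinning and 52.6% without the deepest 10% of cells. The mesenchymal share of Hgf UMIs, 44.7%, was 50% after thinning, and the endothelial share of Cxcr4 UMIs, 21.3%, was 26.0% with mixed cells assigned to a class. Hgf between the mesenchymal cells of the libraries went from 0.20 to -0.25 (-1.06 to 0.53) after thinning, on 22 and 42 UMIs, and its interval held 0 both times. The cause was not tested. Differentiating over progenitor cells ran from -1.54 to -1.20 for Met, from -1.74 to -1.34 for Cxcr4 and from 0.37 to 0.60 for Ackr3, whose interval held 0 after thinning (-0.62 to 1.35, on 19 and 20 UMIs). Cxcl12 between libraries ran from 0.33 to 0.38, and Met in progenitors from 0.48 to 1.15, with an interval above 0 when mixed cells were assigned (0.02 to 1.48) and without the deepest 10% of cells (0.16 to 1.63). Cxcr4 in blood endothelial cells ran from -0.47 to 0.45, on both sides of 0. Leaving out barcode sequences seen in both libraries, and the 1.5-fold limit, were chosen after seeing the data. No paired analysis was possible because each genotype has 1 library, so no replicate could be left out either. The myogenic values of library 1 rest on 115 cells, and differences between embryos cannot be told apart from those between libraries.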
